A study of Homo sapiens with 27 samples.

Results

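SOX2 knockdown was set directly against NKX2-1 knockdown in SHP77, an established human small cell lung cancer cell line of the neuroendocrine kind. The comparison used 8 of the 27 samples of the series, all bulk poly(A) RNA-seq libraries: 4 from cells given siRNA against SOX2 (SOX2 siRNA 1 and SOX2 siRNA 2, n = 2 each) and 4 from cells given siRNA against NKX2-1 (NKX2-1 siRNA 1 and NKX2-1 siRNA 2, n = 2 each). The 3 si-control libraries took no part in the test, and their values stand beside named genes as a description. Every group is the same cell line, transfected by the same lipid method and harvested 72 hours later, with no other genotype or agent named. A gene was tested if its normalized counts averaged 50 or more across those 8 libraries, which kept 12906 of 34742 human genes. The lowest mean inside that limit was 50.03 and the highest mean outside it was 49.98. Values are normalized counts, that is reads per gene divided by one size factor per library. All differences are SOX2 siRNA minus NKX2-1 siRNA on the scale log2(normalized count + 1), so a positive value means a higher level with SOX2 siRNA.

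SOX2 is a transcription factor of the HMG-box family, which binds short AT-rich DNA words and is known for its roles in stem cells, the nervous system and the foregut. NKX2-1 is a homeodomain transcription factor that marks lung and thyroid lineages and is expressed in many neuroendocrine small cell tumours. A small interfering RNA directs cleavage of the mRNA it pairs with and can also lower unrelated mRNAs through its seed, so differences between siRNAs of one target were measured beside the differences between targets. Per the series text, the knockdowns were made to find genes downstream of both factors, which bind a circular RNA from the RMST gene.

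The markers of the labelled cell type were present in every library. INSM1, a neuroendocrine transcription factor, averaged 18335 ± 1303 normalized counts with SOX2 siRNA, 18009 ± 783 with NKX2-1 siRNA (SD, n = 4 each) and 13204 ± 288 with si-control (SD, n = 3). SYP, the synaptic vesicle protein synaptophysin, averaged 1166 ± 44.9 with SOX2 siRNA, 1319 ± 113 with NKX2-1 siRNA and 1385 ± 42.3 with si-control. NEUROD1 and YAP1, which mark other small cell subtypes, had 0 reads with SOX2 siRNA, 4 and 3 reads with NKX2-1 siRNA, and 1 and 0 reads with si-control. POU2F3 was not analysed here. Library depth was 16.1 to 30.7 M reads (M, megareads) with SOX2 siRNA, 17.2 to 50.1 M with NKX2-1 siRNA and 15.5 to 17.9 M with si-control. Reads of mitochondrial genes made up 6.90 to 8.96% of a SOX2 siRNA library and 7.16 to 8.75% of an NKX2-1 siRNA library. The summed level of 10 fibroblast markers was 438 to 620.1 normalized counts with SOX2 siRNA, 406 to 576 with NKX2-1 siRNA and 534 to 605 with si-control, and of these COL1A2, COL3A1, PDGFRB and THY1 had at most 7 reads over the libraries of either target.

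The targeted genes separated the groups by label. In the order siRNA 1 replicates 1 and 2, then siRNA 2 replicates 1 and 2, which holds for all values below, SOX2 had 396, 389, 466 and 439 normalized counts with SOX2 siRNA, against 2285, 2242, 2098 and 2252 with NKX2-1 siRNA. Its level in the 3 si-control libraries was 1191, 1152 and 1084, between the knockdown groups and overlapping neither. The means were 423 ± 36.2 with SOX2 siRNA and 2219 ± 83.0 with NKX2-1 siRNA (SD, n = 4 each), a log2 difference of -2.39 (SE 0.05, limma adjusted p = 2.3e-15). NKX2-1 had 2764, 2446, 2608 and 2531 normalized counts with SOX2 siRNA, against 959, 1070, 836 and 796 with NKX2-1 siRNA and 2199, 2357 and 2145 with si-control. The 4 SOX2 siRNA libraries all lay above the si-control libraries for NKX2-1, and the 4 NKX2-1 siRNA libraries all lay below them. The log2 difference of NKX2-1 was 1.51 (SE 0.05, limma adjusted p = 3.2e-13). NKX2-1 siRNA 1 left more of its target than NKX2-1 siRNA 2, by 0.31 on the log2 scale (limma adjusted p = 0.0030). SOX2 siRNA 1 left less of its target than SOX2 siRNA 2, with a log2 difference of -0.20 (limma adjusted p = 0.041). SOX2 (ENSG00000181449.3) lies at chr3:181711925-181714436 and NKX2-1 (ENSG00000136352.17) at chr14:36516397-36520232 in GRCh38.p14. SOX2 lies within the noncoding gene SOX2-OT and NKX2-1 overlaps NKX2-1-AS1 and SFTA3, and nothing given says that counting used strand.

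**Figure D1:**
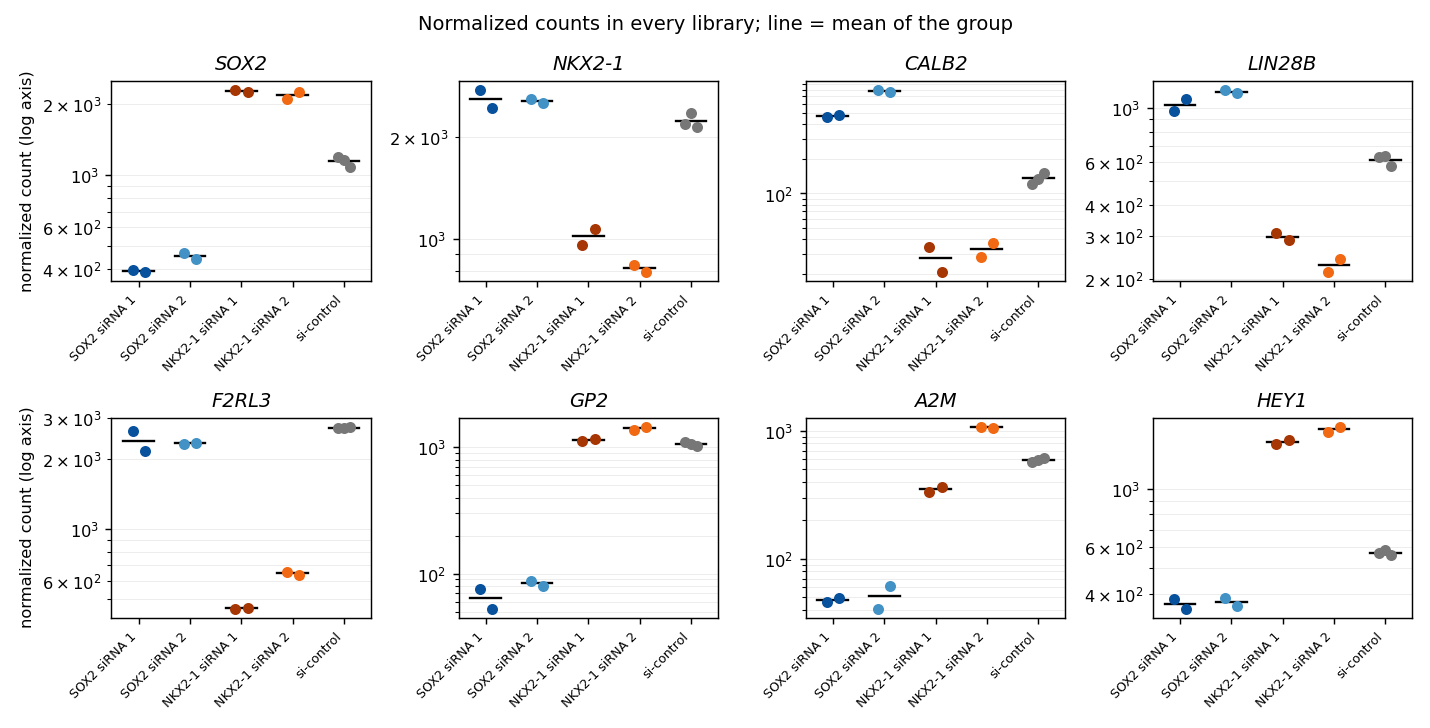
Normalized counts (log axis) of 8 genes in every library of the 5 groups. Points are libraries and lines are group means. For SOX2, GP2, A2M and HEY1 all SOX2 siRNA libraries lie below all NKX2-1 siRNA libraries, and for NKX2-1, CALB2, LIN28B and F2RL3 they lie above them.

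Across the genes tested, 8125 differed between the targets at an adjusted p of 0.05, which is 63.0% of them. Of these, 4263 (33.0%) were higher with SOX2 siRNA and 3862 (29.9%) were lower. Large differences were mostly in the lower direction: 307 genes (2.38%) were at least 2-fold lower and 108 genes (0.837%) were at least 2-fold higher. With each library scaled to the same total, 3358 genes were higher and 4581 lower, so that 42.3% of calls were higher in place of 52.5%. That scaling moved the median of all genes by -0.053 on the log2 scale.

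The siRNAs of one target also differed from each other, and these differences bound what the average can say about a target. SOX2 siRNA 1 and SOX2 siRNA 2 differed at 2723 genes (21.1%), and NKX2-1 siRNA 1 and NKX2-1 siRNA 2 at 4081 genes (31.6%). The 4 pairings gave 6952 genes (53.9%) for SOX2 siRNA 1 against NKX2-1 siRNA 1, 7059 (54.7%) for SOX2 siRNA 1 against NKX2-1 siRNA 2, 6731 (52.2%) for SOX2 siRNA 2 against NKX2-1 siRNA 1 and 6445 (49.9%) for SOX2 siRNA 2 against NKX2-1 siRNA 2. The same direction was called in all 4 pairings for 3094 genes (24.0%), of which 1656 (12.8%) were higher with SOX2 siRNA and 1438 (11.1%) lower. The SOX2 siRNA libraries all lay beyond all NKX2-1 siRNA libraries for 5083 genes (39.4%), 2727 higher (21.1%) and 2356 lower (18.3%). In contrast, 848 genes were called higher in some pairing and lower in another. The median absolute log2 difference was 0.207 between targets, 0.128 between the SOX2 siRNAs and 0.157 between the NKX2-1 siRNAs. Of the 8125 genes called on average, 5523 differed more between targets than between the siRNAs of either target. With the mean of each siRNA taken as a single sample (n = 2 per target), which uses the spread between siRNAs as the error, 451 genes were higher and 695 lower. Nothing states whether replicates were separate cultures, although the series text calls them biological, so each p-value reflects only how far these libraries spread, and part of that spread may be technical.

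**Figure D2:**
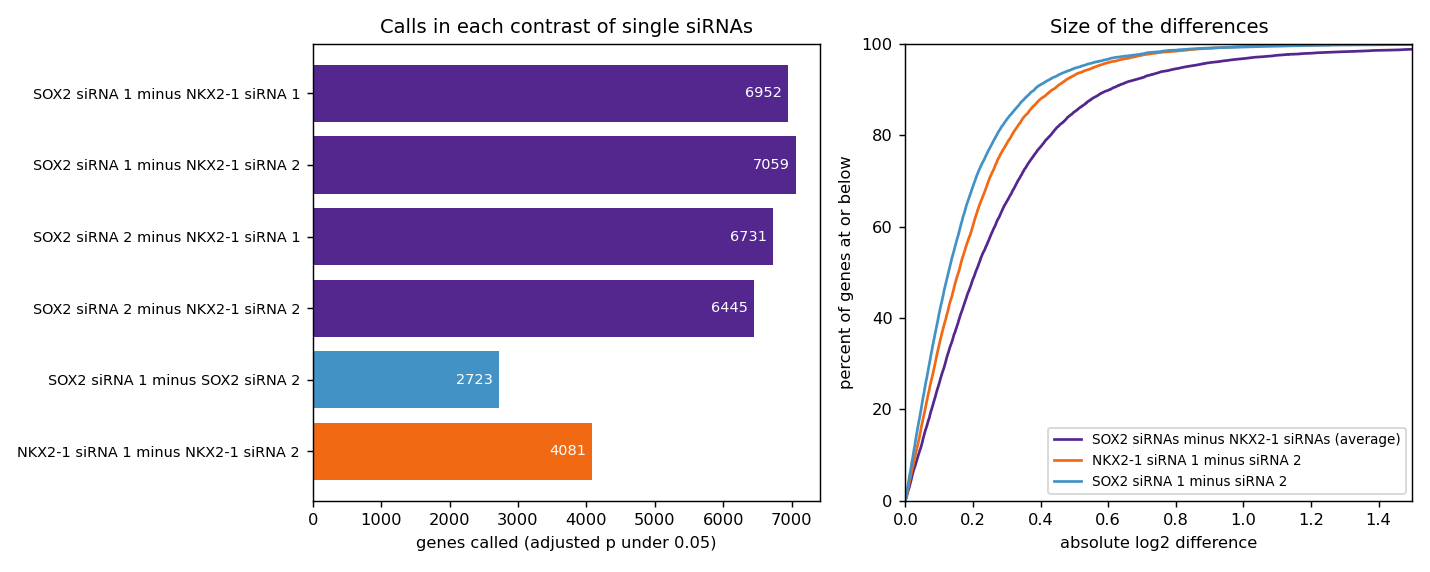
Left, the number of genes called in each contrast of single siRNAs: 6445 to 7059 between targets, 2723 between the SOX2 siRNAs and 4081 between the NKX2-1 siRNAs. Right, the percent of genes (vertical axis) with an absolute log2 difference at or below each size (horizontal axis): the curve between targets lies below the curves between siRNAs of one target.

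The first principal component of the 8 libraries held 65.2% of the variance and separated the targets, with scores of 22.3 to 27.1 for SOX2 siRNA libraries and -25.2 to -23.5 for NKX2-1 siRNA libraries. The second, with 14.6%, placed siRNA 1 of each target above siRNA 2. The third held 10.5%.

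The named genes with the largest positive differences included calcium-binding, cytoskeletal, signalling and RNA-binding proteins. CALB2, the calcium-binding protein calretinin (chr16:71358723-71390433), had 466, 485, 792 and 768 normalized counts with SOX2 siRNA, against 34.0, 20.9, 28.2 and 37.0 with NKX2-1 siRNA. The si-control libraries, at 121, 134 and 152, lay between the groups. Its log2 difference was 4.33 (SE 0.14, limma adjusted p = 1.6e-13), a 20.1-fold higher level, and ranged from 3.84 to 4.82 over the 4 pairings. CAP2, an actin regulator of the cyclase-associated family, had 233, 227, 288 and 244 normalized counts with SOX2 siRNA, against 29.3, 29.8, 29.3 and 29.6 with NKX2-1 siRNA and 17.5, 29.2 and 25.4 with si-control. The NKX2-1 siRNA libraries lay just above the highest si-control library and the SOX2 siRNA libraries far above both, with a log2 difference of 3.02 (SE 0.12). EYA1, a transcriptional coactivator and phosphatase that works with homeodomain partners, had NKX2-1 siRNA libraries that overlapped si-control, with 241, 261, 188 and 170 normalized counts with SOX2 siRNA, against 32.1, 32.3, 39.5 and 25.9 with NKX2-1 siRNA and 31.2, 28.03 and 38.1 with si-control (log2 difference 2.69, SE 0.14).

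For other genes in this direction the NKX2-1 siRNA libraries lay far below si-control. F2RL3, the thrombin receptor PAR4 (chr19:16888999-16892606), had 2636, 2169, 2338 and 2358 normalized counts with SOX2 siRNA, against 456, 459, 655 and 638 with NKX2-1 siRNA and 2727, 2739 and 2761 with si-control. Its log2 difference was 2.12 (SE 0.05, limma adjusted p = 2.2e-14), and the NKX2-1 siRNAs differed from each other by -0.50. CPAMD8, a protein of the complement and alpha-2-macroglobulin family, had a mean of 475 ± 67.2 with SOX2 siRNA, 97.6 ± 15.5 with NKX2-1 siRNA (SD, n = 4 each) and 502 ± 18.3 with si-control (SD, n = 3). LIF, a cytokine of the interleukin-6 family, had 954, 863, 1052 and 1107 with SOX2 siRNA, against 271, 300, 287 and 301 with NKX2-1 siRNA and 1607, 1590 and 1588 with si-control, so that both groups lay below si-control. CEACAM6, a cell adhesion molecule, depended on the reagent: it had 52.0, 78.8, 185 and 144 with SOX2 siRNA, against 22.7, 19.2, 28.2 and 23.4 with NKX2-1 siRNA and 211, 230 and 193 with si-control. The SOX2 siRNAs differed there by -1.33 (limma adjusted p = 0.0014), and all CEACAM6 values with SOX2 siRNA lay below si-control.

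LIN28B, an RNA-binding protein that blocks maturation of let-7 microRNAs, moved away from si-control on either side. It had 969, 1091, 1184 and 1152 normalized counts with SOX2 siRNA, against 308, 287, 213 and 239 with NKX2-1 siRNA and 630, 635 and 578 with si-control (log2 difference 2.08, SE 0.06, limma adjusted p = 1.3e-13). ADCY5, an adenylyl cyclase, and EPHB1, an ephrin receptor, had log2 differences of 2.19 and 2.10, with at most 0.22 between the siRNAs of one target. SHROOM2, an actin-binding protein, had a log2 difference of 2.42, but it was 1.46 in the lowest pairing and 3.37 in the highest, because the NKX2-1 siRNAs differed by -1.47. TGM3, a transglutaminase, had 1.93. The remaining 3 of the 14 largest were the pseudogenes LILRP1 (2.55) and CPHL1P (2.07) and the imprinted noncoding gene PEG13 (1.94). Reads of pseudogenes can be shared with their parent families, and PEG13 lies within TRAPPC9, whose own log2 difference was 0.08 and did not pass.

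The 14 largest negative differences included secreted and matrix proteins, receptors and a signalling enzyme. SERPINA5, the protein C inhibitor of the serpin family, had 1.42, 0, 0 and 4.03 normalized counts with SOX2 siRNA, against 84.0, 96.5, 175 and 131 with NKX2-1 siRNA and 86.1, 70.7 and 63.4 with si-control. MRAS, a small GTPase related to RAS, had 2.14, 3.70, 2.34 and 0 with SOX2 siRNA, against 229, 216, 80.03 and 76.5 with NKX2-1 siRNA and 49.9, 37.8 and 36.6 with si-control. These levels rest on 5 and 8 reads in all 4 SOX2 siRNA libraries together, against 586 and 904 reads with NKX2-1 siRNA. The fitted log2 differences, -5.98 (SE 0.44) and -5.65 (SE 0.34), therefore depend on the added constant: with 10 in place of 1 they were -3.50 and -3.58.

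GP2, a glycoprotein of secretory granule membranes (chr16:20309574-20327513), had the third largest negative difference, on ample reads. It had 75.4, 52.96, 87.6 and 80.5 normalized counts with SOX2 siRNA, against 1118, 1161, 1382 and 1451 with NKX2-1 siRNA and 1103, 1063 and 1026 with si-control. Only the SOX2 siRNA libraries stood far from si-control, and the log2 difference was -4.11 (SE 0.09, limma adjusted p = 9.7e-15), a 17.2-fold lower level. A2M, the protease inhibitor alpha-2-macroglobulin, had 45.6, 49.3, 40.9 and 61.7 with SOX2 siRNA, against 335, 366, 1075 and 1055 with NKX2-1 siRNA and 573, 596 and 617 with si-control. Its NKX2-1 siRNA libraries fell on either side of si-control according to the siRNA, which differed by -1.60 (limma adjusted p = 1.7e-06), and its log2 difference of -3.62 ranged from -4.46 to -2.78 over the pairings.

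OR51E1, a receptor of the olfactory family, had 65.5, 56.7, 100.4 and 99.3 normalized counts with SOX2 siRNA, against 698, 657, 757 and 686 with NKX2-1 siRNA and 245, 290 and 257 with si-control (log2 difference -3.15, SE 0.08). For this gene si-control lay between the groups. CER1, a secreted antagonist of BMP and Nodal ligands, had 12.8, 13.5, 12.8 and 5.37 with SOX2 siRNA, against 82.1, 85.0, 115 and 104 with NKX2-1 siRNA and 9.98, 9.75 and 8.46 with si-control. The SOX2 siRNA and si-control levels overlapped, and the log2 difference was -3.06 (SE 0.23). The other members were NMUR2 (-3.72), a receptor for neuromedin U; PLA2G4A (-3.31), a cytosolic phospholipase; VWA5B2 (-2.76); THSD4 (-2.71) and ADAMTSL1 (-2.66), extracellular matrix proteins of the ADAMTS-like group; NTNG1 (-2.67), a membrane-anchored netrin; CRYAB (-2.59), a small heat shock protein; and TGFBI (-2.56), a matrix adhesion protein. NMUR2 and PLA2G4A rest on 35 SOX2 siRNA reads each, and CER1 and CRYAB on 44 and 58. With 10 as the added constant, their log2 differences were -2.59, -2.46, -2.34 and -2.06. At NMUR2 the SOX2 siRNAs also differed by 2.02 (limma adjusted p = 0.0011). All 28 genes passed also with siRNA means as the samples, where the largest adjusted p among them was 0.0267, for CEACAM6. They were chosen for large differences that passed in all 4 pairings, so this is not separate support.

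**Figure D3:**
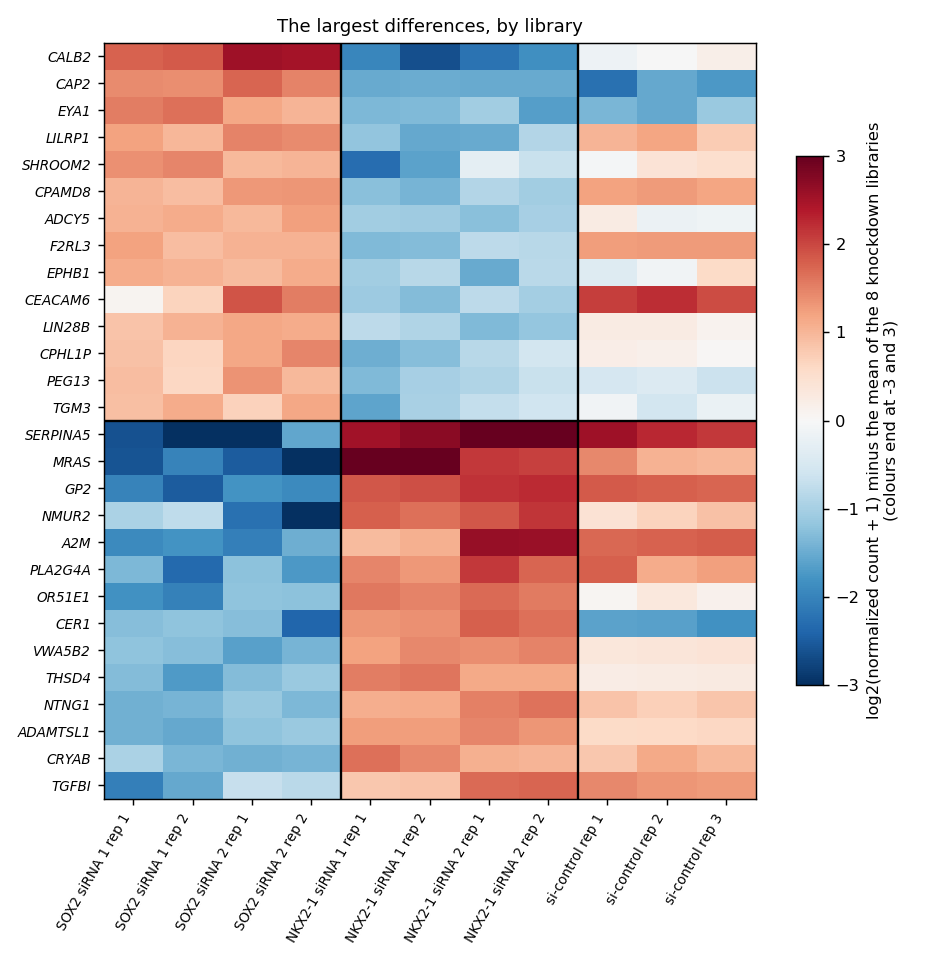
The 14 largest positive differences (above the line) and the 14 largest negative ones (below it), with libraries from left to right in the order SOX2 siRNA, NKX2-1 siRNA and si-control. Colour is log2(normalized count + 1) minus the mean of the 8 knockdown libraries. The si-control column sits with the SOX2 siRNA libraries for F2RL3 and CER1, with the NKX2-1 siRNA libraries for CAP2, EYA1 and GP2, and between them for CALB2 and OR51E1.

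**Figure D4:**
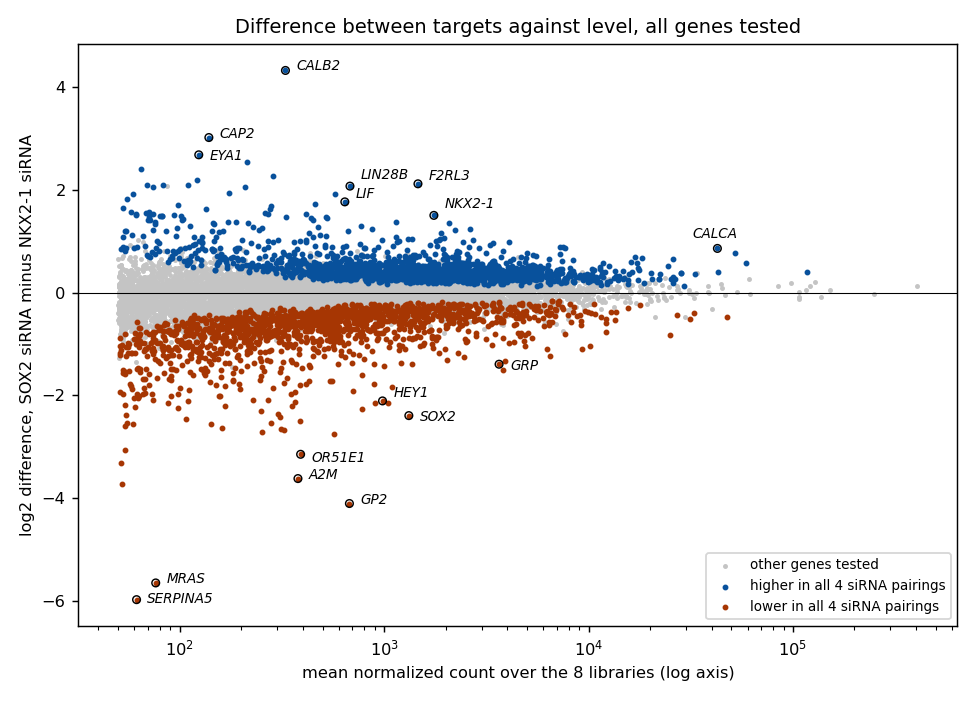
Log2 difference, SOX2 siRNA minus NKX2-1 siRNA (vertical axis), against the mean normalized count of the 8 libraries (log axis), for the 12906 genes tested. Blue points are the 1656 genes higher in all 4 siRNA pairings and brown points the 1438 lower ones; CALB2 is highest and SERPINA5 lowest.

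Short words that SOX proteins and NKX2-1 are known to prefer were then looked up in promoters. The 250 bases before the start that the RefSeq promoter table of GRCh38.p14 gives for a gene were searched on both strands for ACAAAG or ACAATG, core words of SOX proteins, and for CAAGTG, a core word of NKX2-1. Matches of different words were allowed to overlap. Genes with several promoters in that source were left out of the search. The windows of the 2 largest differences in each direction among protein-coding genes with a window are shown 5′ to 3′ on the strand of the gene, with matched words in capitals; those of CAP2 and SERPINA5 hold no match.
CAP2, chr6:17393345-17393594, plus strand: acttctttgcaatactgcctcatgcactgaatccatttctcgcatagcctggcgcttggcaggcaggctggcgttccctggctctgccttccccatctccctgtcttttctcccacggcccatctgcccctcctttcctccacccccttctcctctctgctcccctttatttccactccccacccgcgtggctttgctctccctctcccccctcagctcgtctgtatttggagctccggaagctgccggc
F2RL3, chr19:16888749-16888998, plus strand: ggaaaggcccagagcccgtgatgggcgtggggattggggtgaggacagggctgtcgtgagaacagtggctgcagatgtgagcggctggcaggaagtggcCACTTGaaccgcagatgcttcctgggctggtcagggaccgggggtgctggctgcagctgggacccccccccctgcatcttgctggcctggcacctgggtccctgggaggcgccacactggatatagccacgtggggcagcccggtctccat
SERPINA5, chr14:94581176-94581425, plus strand: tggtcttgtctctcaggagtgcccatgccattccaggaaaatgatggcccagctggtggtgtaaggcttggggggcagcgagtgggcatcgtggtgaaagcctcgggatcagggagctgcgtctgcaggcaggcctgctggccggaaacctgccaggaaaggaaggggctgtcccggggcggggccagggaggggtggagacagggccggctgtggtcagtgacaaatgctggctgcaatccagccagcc
GP2, chr16:20327514-20327763, minus strand: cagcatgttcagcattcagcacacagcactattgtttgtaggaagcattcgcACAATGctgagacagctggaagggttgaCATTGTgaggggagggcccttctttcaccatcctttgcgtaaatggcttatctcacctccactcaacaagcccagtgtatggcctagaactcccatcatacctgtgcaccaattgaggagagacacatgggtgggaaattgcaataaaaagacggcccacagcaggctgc

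The GP2 window holds ACAATG at -198 and its reverse complement CATTGT at -170 (the first base, counted back from the gene start), and the F2RL3 window holds CACTTG, the reverse complement of the NKX2-1 word, at -151. Of the 28 genes with the largest differences, those not protein-coding or on chromosome 8, EYA1 among them, were not looked up. Of the rest, 13 had a window, and 4 of these held any word. The other two were EPHB1, higher with SOX2 siRNA, with ACAATG at -133, and ADAMTSL1, lower with SOX2 siRNA, with CTTTGT, the reverse complement of a SOX word, at -167. A single promoter was found for 7062 of the 12906 genes tested, of which 12.3% held a SOX word and 6.67% the NKX2-1 word. Of these windows 3227 end next to the outer end of the annotated gene and 3835, that of ADAMTSL1 among them, belong to another start; in the 3227 the shares were 11.8% and 6.57%. Among genes at least 2-fold lower in all 4 pairings, 142 of 300 had a promoter, 21.8% with a SOX word and 5.63% with the NKX2-1 word. Among genes at least 2-fold higher in all 4 pairings, 35 of 106 had one, 17.1% with a SOX word and 14.3% with the NKX2-1 word. For all genes lower in the 4 pairings the shares were 15.6% and 6.98%, and for all genes higher they were 12.7% and 7.12%. These are counts of letters in a short window, 5 genes for the 14.3%, without a test.

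Lists of genes by role were then read against the background of all genes, whose median log2 difference was 0.02, with 33.0% higher and 29.9% lower. With siRNA means as samples, 451 of the 12906 genes were higher and 695 lower, which is the background for list counts under that fit. A share of a list near its background is not a result about that list. For list members, rose and fell mean higher and lower with SOX2 siRNA than with NKX2-1 siRNA, not a change from si-control. Of the SOX family, 9 members were tested, and 6 fell and 1 rose, each in all 4 pairings (median -0.79). SOX2 itself is one of the 6. SOX5, which acts in neural and cartilage development, had 63.3, 66.5, 59.6 and 75.2 normalized counts with SOX2 siRNA, against 196, 190, 195 and 205 with NKX2-1 siRNA and 211, 195 and 178 with si-control (log2 difference -1.56, SE 0.11). SOX21, a relative of SOX2, had 244, 186, 174 and 232 with SOX2 siRNA, against 363, 378, 364 and 370 with NKX2-1 siRNA and 193, 177 and 187 with si-control, so that here SOX2 siRNA overlapped si-control (-0.83, SE 0.10). SOX6 (-1.002), SOX4 (-0.79) and SOX13 (-0.54) were the other falls, and SOX11 (0.45) the rise. SOX6 differed between the SOX2 siRNAs by -0.95 and did not pass with siRNA means as samples (adjusted p = 0.0756).

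Among 19 lineage transcription factors tested, 8 rose and 8 fell (median 0.02, which was below 0 with equal totals and with quantile scaling). These counts include the siRNA targets themselves, NKX2-1 (1.51) among the rises and SOX2 (-2.39) among the falls. MYCL, a MYC family member common in neuroendocrine small cell tumours, had 76.2, 45.6, 85.2 and 94.0 normalized counts with SOX2 siRNA, against 165, 140, 141 and 137 with NKX2-1 siRNA and 187, 171 and 190 with si-control (log2 difference -0.99, SE 0.14). MYC itself went the other way, with 2885, 2812, 2491 and 2453 with SOX2 siRNA, against 1133, 1207, 1435 and 1302 with NKX2-1 siRNA and 1703, 1778 and 1694 with si-control (1.07, SE 0.04). INSM1, a zinc finger factor of neuroendocrine cells, had a difference of 0.02 and did not pass.

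RMST, the noncoding gene that is host to the circular RNA studied in the series, had 69.0, 64.0, 72.4 and 53.7 normalized counts with SOX2 siRNA, against 110, 93.2, 81.2 and 83.9 with NKX2-1 siRNA and 64.9, 84.1 and 60.6 with si-control. The groups of the knockdowns did not overlap and the log2 difference was -0.50 (SE 0.14, limma adjusted p = 0.0046), but only 2 of 4 pairings passed and the adjusted p was 0.147 with siRNA means as samples. These gene-level values do not separate linear from circular transcripts.

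The neuroendocrine markers were split. Of 35 tested, 8 rose and 18 fell, 3 and 12 of them in all 4 pairings (median -0.15). GRP, the gastrin-releasing peptide, had 1863, 1995, 2052 and 2005 normalized counts with SOX2 siRNA, against 4209, 4100, 6472 and 6509 with NKX2-1 siRNA and 4675, 4790 and 4674 with si-control. The SOX2 siRNA libraries lay far below the others, and the log2 difference was -1.39 (SE 0.04, limma adjusted p = 2.2e-14). CALCA, which encodes calcitonin and its related peptide, was higher instead, with 53874, 50155, 55948 and 56500 with SOX2 siRNA, against 20737, 22118, 42025 and 40492 with NKX2-1 siRNA and 61494, 60762 and 61974 with si-control. The CALCA difference of 0.86 (SE 0.03) ranged from 0.33 to 1.39 over the pairings, as the NKX2-1 siRNAs differed by -0.95, and its adjusted p was 0.0870 with siRNA means as samples. ELAVL4, a neuronal RNA-binding protein (-1.13), and RTN1, a neuronal reticulon (-1.09), fell. The general markers CHGA (-0.22) and SYP (-0.17) fell by less, while TUBB3 (-0.06) and ENO2 (-0.09) did not pass. Among 11 neuropeptide and hormone genes tested, 2 rose and 6 fell (median -0.14). Somatostatin, SST, is the clearest case of a reagent difference: it had 110, 107, 147 and 134 with SOX2 siRNA, against 84.0, 92.4, 6.76 and 11.1 with NKX2-1 siRNA and 17.5, 17.1 and 29.6 with si-control. The NKX2-1 siRNAs differed there by 3.20, more than the 2.08 between targets.

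Genes of the regulated secretory pathway were mostly lower with SOX2 siRNA. Of 18 granin and prohormone processing genes tested, 1 rose and 16 fell, 6 of them in all 4 pairings (median -0.27). PCSK2, a prohormone convertase, had 2816, 2651, 2747 and 2780 normalized counts with SOX2 siRNA, against 5359, 5511, 5372 and 5289 with NKX2-1 siRNA and 4368, 4275 and 4560 with si-control. Neither siRNA pair of a target differed for this gene by more than 0.03, and the log2 difference was -0.97 (SE 0.03, limma adjusted p = 8.3e-13). The granins SCG2 (-0.82), CHGB (-0.64) and SCG3 (-0.63) fell, though the SCG2 difference was -0.14 in its weakest pairing. With siRNA means as samples SCG2 (limma adjusted p = 0.114) and SCG3 (0.052) did not pass. The rise was PCSK5 (0.54), another convertase. With siRNA means as samples 3 of the 18 genes passed, all lower, beside 695 of all 12906 genes lower under that fit.

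Of 32 synaptic vesicle and exocytosis genes tested, 6 rose and 18 fell (median -0.15). SLC18A1, a vesicular monoamine transporter, had 74.0, 69.0, 86.4 and 85.9 normalized counts with SOX2 siRNA, against 325, 356, 605 and 633 with NKX2-1 siRNA and 172, 163 and 155 with si-control (log2 difference -2.53, SE 0.08). SV2B, a synaptic vesicle glycoprotein, had 255, 313, 399 and 376 with SOX2 siRNA, against 1334, 1292, 1643 and 1623 with NKX2-1 siRNA and 1073, 1109 and 1011 with si-control (-2.14, SE 0.06). In both genes the knockdown groups were far apart, with si-control in between. SYT13, a synaptotagmin, had -1.11, and SYT7, a calcium sensor of the same family, was the largest rise at 0.89. Among 29 neuronal genes tested 7 rose and 14 fell (median -0.06): NEFH, the heavy neurofilament, rose by 1.37 and CNTN1, an adhesion molecule, by 1.20, while GRIK2, a kainate receptor subunit, had -0.91. Of 31 voltage-gated channel genes tested, 9 rose and 15 fell (median -0.19), with the sodium channel SCN1A at -1.38 and the potassium channel KCNQ5 at 0.89. KCNQ5 averaged 348 normalized counts with SOX2 siRNA, 191 with NKX2-1 siRNA and 341 with si-control.

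Of 43 axon guidance genes tested, 12 rose, which is near the share over all genes, and 22 fell (median -0.23). SEMA3D, a secreted semaphorin, had 52.7, 57.9, 67.7 and 81.9 normalized counts with SOX2 siRNA, against 227, 224, 192 and 228 with NKX2-1 siRNA and 141, 156 and 151 with si-control (log2 difference -1.74, SE 0.11). The ROBO receptors ROBO1 (-0.79) and ROBO2 (-0.88) and their ligand SLIT2 (-0.71) fell, while another ligand, SLIT1, had 2899, 2643, 2480 and 2427 with SOX2 siRNA, against 1168, 1366, 1054 and 1095 with NKX2-1 siRNA and 1530, 1573 and 1536 with si-control (1.16, SE 0.05). Likewise EPHB1 (2.10) and EPHA8 (0.99) rose and EPHA5 (-0.69) and EPHA3 (-0.44) fell. Receptors of the same family thus lay on both sides of 0.

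Genes tied to surface targets of small cell tumours were mostly lower: of 17 tested, 3 rose and 13 fell, 2 and 8 of them in all 4 pairings (median -0.39). SEZ6, a neuronal surface protein, had 1853, 1497, 1780 and 1815 normalized counts with SOX2 siRNA, against 3406, 3709, 3118 and 3067 with NKX2-1 siRNA and 2374, 2375 and 2385 with si-control (log2 difference -0.94, SE 0.05). CD47, a signal against phagocytosis, had 1234, 1298, 1214 and 1174 with SOX2 siRNA, against 2305, 2005, 2294 and 2258 with NKX2-1 siRNA and 1670, 1595 and 1576 with si-control (-0.85, SE 0.05). ST8SIA1, a ganglioside synthase (-0.97), and PTK7, a Wnt-linked pseudokinase (-0.88), also fell, and the Notch ligand DLL3 was 0.17 higher. The DLL3 groups overlapped, with 6922 to 9549 normalized counts with SOX2 siRNA and 6896 to 8262 with NKX2-1 siRNA. Of 23 receptor tyrosine kinase genes tested, 4 rose and 13 fell (median -0.21). Among the falls were the Wnt receptors ROR1 (-1.07) and ROR2 (-0.83) and the stem cell factor receptor KIT (-0.94). ROR1 differed between the SOX2 siRNAs by -0.84, and KIT did not pass for SOX2 siRNA 2 against NKX2-1 siRNA 2 (limma adjusted p = 0.064). Neither passed with siRNA means as samples (limma adjusted p = 0.0576 for ROR1 and 0.0564 for KIT).

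In the Notch pathway, which restrains neuroendocrine fate, 8 of 24 genes tested rose and 7 fell (median -0.09), which is near the shares over all genes. HEY1, a transcriptional repressor induced by Notch, had 380, 351, 387 and 358 normalized counts with SOX2 siRNA, against 1479, 1529, 1647 and 1723 with NKX2-1 siRNA and 573, 586 and 560 with si-control. The groups lay on opposite sides of si-control, and the log2 difference was -2.11 (SE 0.05, limma adjusted p = 1.8e-14). The other Notch effectors HES1 (-0.15) and HEYL (-0.21) did not pass and HEY2 was 0.27 higher. The ligand DLL4 (0.78) and the DNA-binding partner RBPJ (0.49) rose, and the atypical ligand DLK1 (-0.75) fell.

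**Figure D5:**
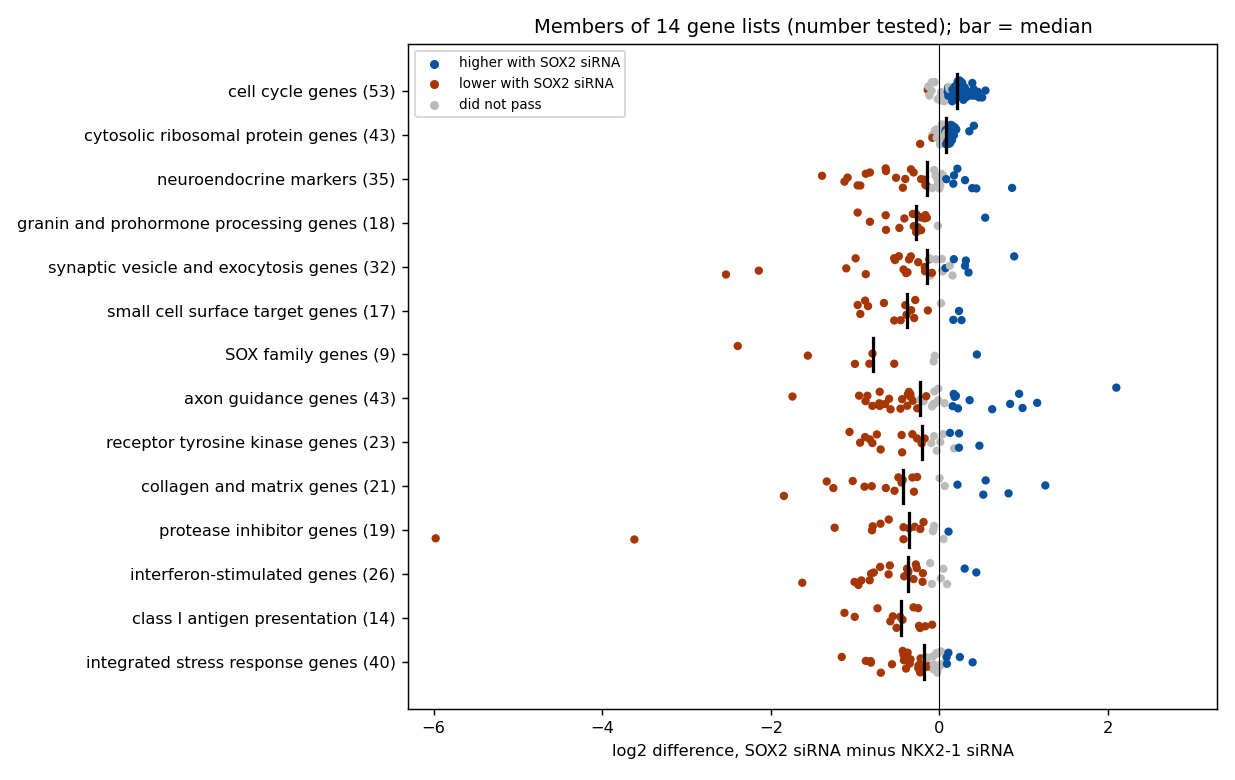
Log2 difference, SOX2 siRNA minus NKX2-1 siRNA, of the members of 14 lists, with the number tested in brackets. Each point is a gene, blue where it was higher, brown where it was lower and grey where it did not pass, and the bar is the median, which is 0.21 for cell cycle genes and -0.45 for class I antigen presentation.

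Among feedback genes of other signalling pathways, SPRY1, an inhibitor of receptor tyrosine kinase signalling, had 250, 257, 256 and 251 normalized counts with SOX2 siRNA, against 863, 892, 1690 and 1745 with NKX2-1 siRNA and 983, 986 and 936 with si-control (log2 difference -2.27, SE 0.05). Its SOX2 siRNA libraries were tightly grouped, and its NKX2-1 siRNAs differed by -0.97. DUSP1, a MAP kinase phosphatase, was 0.92 higher, and of 25 MAPK feedback genes tested 9 rose and 11 fell (median -0.06, and -0.42 to 0.03 over the pairings). Of 16 Wnt and Hedgehog feedback genes tested, 3 rose and 10 fell (median -0.26). LGR5, a receptor for R-spondins, had 120, 122, 135 and 152 with SOX2 siRNA, against 442, 429, 346 and 326 with NKX2-1 siRNA and 120, 132 and 141 with si-control, so that only NKX2-1 siRNA stood apart (-1.53, SE 0.08). DACT1, a Dishevelled regulator, was instead lowest in si-control, with 447, 405, 532 and 569 with SOX2 siRNA, against 140, 162, 199.5 and 204 with NKX2-1 siRNA and 126, 110 and 103 with si-control (1.47, SE 0.08). Of 30 BMP and TGF-beta genes tested, 8 rose and 16 fell (median -0.14), with the ligand BMP2 at 1.03, the ligand BMP6 at -0.89 and the decoy receptor BAMBI at -1.20. Among 14 YAP/TAZ targets tested 7 rose and 5 fell (median 0.09), from AMOTL2, an angiomotin, at -1.47 to TGFB2, a growth factor, at 1.09.

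Matrix and protease inhibitor genes were mostly lower. Of 21 collagen and matrix genes tested, 5 rose and 14 fell (median -0.44), and of 19 protease inhibitor genes 1 rose and 13 fell (median -0.36). LAMA4, a laminin chain, had 438, 395, 474 and 458 normalized counts with SOX2 siRNA, against 1013, 1037, 2510 and 2390 with NKX2-1 siRNA and 790, 810.4 and 832 with si-control (log2 difference -1.84, SE 0.05). FN1, fibronectin, had 1542, 1466, 3085 and 3142 with SOX2 siRNA, against 5666, 6079, 5072 and 5102 with NKX2-1 siRNA and 2360, 2342 and 2426 with si-control (-1.34, SE 0.04). The SOX2 siRNA libraries of FN1 fell on either side of si-control according to the siRNA, which differed by -1.05. COL12A1, a fibril-associated collagen, was 1.26 higher. Of 19 mesenchymal genes tested 6 rose and 11 fell (median -0.19), of 21 epithelial genes 5 rose and 9 fell (median -0.06), and of 8 non-neuroendocrine markers 2 rose and 5 fell (median -0.27).

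Antigen presentation by HLA class I and interferon-stimulated genes were lower with SOX2 siRNA. All 14 class I genes tested fell, 6 of them in all 4 pairings (median -0.45, and -0.58 to -0.25 over the pairings). Under the alternatives the median lay between -0.53 and -0.34, with 13 falls under quantile scaling and 4 with siRNA means as samples. TAP1, a subunit of the peptide transporter, had 381, 335, 508 and 470 normalized counts with SOX2 siRNA, against 806, 821, 1053 and 997 with NKX2-1 siRNA and 1288, 1227 and 1298 with si-control. The order was the same for each siRNA, lowest with SOX2 siRNA and highest with si-control, and the log2 difference was -1.13 (SE 0.06, limma adjusted p = 8.1e-11). NLRC5, the transactivator of class I genes (-1.004), PSMB8, an immunoproteasome subunit (-0.73), and B2M, the light chain of class I molecules (-0.31), fell. TAP1 and PSMB8 overlap the antisense gene PSMB8-AS1. Of 26 interferon-stimulated genes tested, 2 rose and 19 fell, 1 and 10 of them in all 4 pairings (median -0.37), and 6 of the falls passed with siRNA means as samples. IFIH1, a sensor of double-stranded RNA, had 32.0, 44.3, 54.9 and 45.6 with SOX2 siRNA, against 135, 131, 152 and 128 with NKX2-1 siRNA and 198, 217 and 199 with si-control (-1.63, SE 0.14). OAS3 (-1.01), another sensor of that kind, fell, and the rises were ISG20 (0.44) and TRIM14 (0.30).

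Of the 40 integrated stress response genes tested, 5 rose and 23 fell, 2 and 13 in all 4 pairings (median -0.18). ASNS, asparagine synthetase, had 3648, 3861, 3276 and 3463 normalized counts with SOX2 siRNA, against 6456, 6050, 6351 and 6179 with NKX2-1 siRNA and 7865, 7809 and 7700 with si-control. Its groups did not overlap and the log2 difference was -0.82 (SE 0.04, limma adjusted p = 1.2e-11). FGF21, a stress hormone (-1.16), PCK2, a mitochondrial carboxykinase (-0.87), and the serine synthesis enzymes PSPH (-0.69) and PHGDH (-0.56) fell. The transcription factors of the response differed less, with ATF4 at -0.12 and ATF5 at 0.39, and DDIT3 (-0.15) did not pass. Of 35 unfolded protein response genes tested, 9 rose and 19 fell (median -0.13, and -0.43 to 0.10 over the pairings), but 3 rose and 23 fell with equal totals and 2 passed with siRNA means as samples. In the cholesterol and fatty acid list 19 of 40 rose and 12 fell (median 0.07), with the carboxylase ACACB at -0.77.

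Cell cycle genes were slightly higher with SOX2 siRNA. Of 53 tested, 40 rose and 1 fell, 13 of the rises in all 4 pairings, against 12.8% of all genes higher in all 4 (median 0.21, and 0.10 to 0.29 over the pairings). AURKA, a mitotic kinase, had 6254, 6363, 6357 and 6546 normalized counts with SOX2 siRNA, against 4618, 4367, 4295 and 4194 with NKX2-1 siRNA and 4576, 4809.9 and 4491 with si-control (log2 difference 0.55, SE 0.03). CCNA2, cyclin A2, had 2390, 2399, 2311 and 2204 with SOX2 siRNA, against 1590, 1567, 1670 and 1717 with NKX2-1 siRNA and 1483, 1589 and 1425 with si-control (0.51, SE 0.04). For both genes NKX2-1 siRNA overlapped si-control and SOX2 siRNA did not. The proliferation marker MKI67 was 0.28 higher, while the replication genes PCNA (0.01) and MCM4 (0.02) did not pass. With siRNA means as samples 3 of the 53 genes passed, all higher, beside 451 of all 12906 genes higher under that fit. Cytosolic ribosomal protein genes showed 23 of 43 higher and 2 lower (median 0.08), but 13 and 8 with equal totals and 9 and 7 with quantile scaling. Of the 13 mRNAs encoded in mitochondria, 3 rose and 1 fell (median 0.05, which was below 0 with equal totals and with quantile scaling).

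Lung and gut lineage genes were few at this level. Of the 20 known NKX2-1 lung targets in the data, 8 were tested, of which 2 rose and 4 fell (median -0.16). ROR1 (-1.07) and PPP1R14C (-0.75) were among the falls. The rises were LPCAT1 and MUC1, and for MUC1 (0.43) the groups overlapped. LPCAT1, a surfactant lipid enzyme, had 6447, 5952, 4630 and 4789 normalized counts with SOX2 siRNA, against 2818, 2988, 2525 and 2573 with NKX2-1 siRNA and 3348, 3393 and 3232 with si-control (log2 difference 0.99, SE 0.04), so that the groups lay on opposite sides of si-control. Of 10 foregut and gut genes tested 2 rose and 6 fell (median -0.40), with the pancreatic and duodenal factor PDX1 at -0.69 and the keratin KRT7 at 0.67. PDX1 averaged 280 normalized counts with SOX2 siRNA, 453 with NKX2-1 siRNA and 265 with si-control, so that only NKX2-1 siRNA stood apart. The neural progenitor and stem list had 4 rises and 1 fall among 9 tested (median 0.11), with IGF2BP3, an RNA-binding protein of fetal tissues, at 0.83 beside LIN28B.

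Lists without a clear side included hypoxia and glycolysis (9 of 35 rose, 8 fell), p53 targets (9 of 22 rose, 8 fell), inflammatory and NF-kB genes (8 of 23 rose, 6 fell) and the BCL2 family (6 of 15 rose, 4 fell). The median of each of these lists was between 0.01 and 0.04, and below 0 with equal totals. Of the markers of other cell types, FAP, a surface protease (-1.80), LUM, the proteoglycan lumican (1.34), and PDGFRA, a growth factor receptor (0.48), were the 3 of 10 fibroblast genes tested. CLDN5, a tight junction protein of endothelium (-0.93), and PECAM1, an endothelial adhesion molecule (-1.45), were the 2 blood and endothelial genes tested. With siRNA means as samples FAP and LUM passed. PDGFRA (limma adjusted p = 0.262), CLDN5 (0.0708) and PECAM1 (0.103) did not. The summed level of the blood and endothelial list was 1038 to 1596 normalized counts with SOX2 siRNA, 1810 to 3495 with NKX2-1 siRNA and 3744 to 3956 with si-control. PTPRC, CD68 and LYZ had at most 3 reads over the libraries of either target. Every library is of a single cell line, and the sum is mostly CLDN5 (mean 1789 normalized counts over the 8 libraries), so it does not count endothelial or blood cells. In bulk RNA, fewer cells expressing a gene and less of its RNA per cell cannot be told apart.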

How the data were processed

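Each deposited value is a signal, the count of a gene divided by the size factor of its library. Tools named for the authors' pipeline, per the submitters' processing notes, are DESeq2, STAR 2.5.2b and cutadapt 2.5, and the build is hg38; the DESeq2 version, annotation, counting tool and use of strand are not given in the sources used here. Per the labels' protocols, libraries came from 500 ng of poly(A)-selected RNA and were read as pairs of 150 bases. All values (100%, tolerance 0.05 reads) were whole multiples of a step per library, which gave reads and depth (16.1 to 50.1 M). Features of non-human sequence (38) and pseudoautosomal copies on chromosome Y (11) were left out. A symbol was found for 77.0% of IDs, and positions are RefSeq's for GRCh38.p14, the same build as hg38.

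A limma 3.58.1 model (R 4.3.3) with a mean per siRNA and a trended eBayes prior was fitted to log2(normalized count + 1) over the 8 libraries. The contrast was the average of the 2 SOX2 siRNAs minus the average of the 2 NKX2-1 siRNAs, two-sided, with Benjamini-Hochberg adjustment over the 12906 genes and a threshold of 0.05. This log scale understates the change of low genes. A count test on the recovered reads (edgeR 4.0.16, quasi-likelihood) called 3994 genes higher and 4094 lower. The fitting steps were tested on simulated data. Replicates of one siRNA differed beyond sampling noise, with a chi-square per degree of freedom between 1.58 and 5.78.

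Members and lists were chosen with earlier results of these data known. Named genes were the targets and subtype factors, the 14 largest differences in each direction among genes with a symbol that passed on average and in all 4 pairings and whose groups did not overlap, and up to 4 passing members per list; other list members were named after their values were seen. A few of the genes so chosen are left out of the text. Alternatives were other constants, filters, scalings, tests and models, and leaving out each library or siRNA.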

Additional observations from a re-analysis of the deposited data

Results flagged for a closer look

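In 322 groups of 4 libraries, 13 had a library whose gap to its nearest neighbour exceeded the Dixon limit for 4 values; chance gives about 1 in 20. SOX2 siRNA 1 replicate 1 was set apart by depth (30.7 M, others 16.1 to 18.5 M), CRYAB (18.5 normalized counts, others 12.8 to 13.5) and PPP1R14C (451, others 473 to 476), and replicate 2 by MT-ND5 (99676, others 83743 to 85471). SOX2 siRNA 2 replicate 1 was set apart by EDEM2 (736, others 638 to 652), and replicate 2 by CER1 (5.37, others 12.8 to 13.5) and KCNH6 (21.5, others 35.7 to 38.5). NKX2-1 siRNA 1 replicate 1 was set apart by MYCL (165, others 137 to 141) and ST8SIA1 (116, others 100.3 to 102), and replicate 2 by depth (50.1 M, others 17.2 to 21.8 M) and CD47 (2005, others 2258 to 2305). NKX2-1 siRNA 2 replicate 1 was set apart by ELAVL4 (347, others 381 to 386) and SEMA3D (192, others 224 to 228). For each of these genes the SOX2 siRNA libraries and the NKX2-1 siRNA libraries did not overlap, except MT-ND5. Over all genes tested, 39.4% did not overlap. Apart from MYCL, these genes were named because they passed between targets, CER1 and CRYAB also because their groups did not overlap. Their lack of overlap is therefore not separate support.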

How the results depend on the processing

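The counts of genes higher and lower changed most with the error used. With the 4 libraries of a target as a single group, 2687 were higher and 2480 lower, and with siRNA means as samples 451 and 695. Other constants, filters, scalings and tests gave 3358 to 4597 higher and 3661 to 4581 lower (DESeq2 1.42.0: 3561 and 3661). Leaving out single libraries gave 3789 to 4304 higher, 3476 to 3890 lower and 2399 to 3133 in all 4 pairings, and leaving out a siRNA gave 3748 to 4055 higher and 3294 to 3594 lower. Of the 161 named genes, 114 passed with siRNA means as samples and 152 with groups of 4. Directions turned for MT-ND1 without SOX2 siRNA 1 (-0.0519), for MT-CYB without SOX2 siRNA 2 (0.0059) or NKX2-1 siRNA 2 (0.0583), and for the medians of the Notch pathway (0.0193) and of BMP and TGF-beta genes (0.0070) without SOX2 siRNA 1, of epithelial (0.0357), MAPK feedback (0.0525) and unfolded protein response genes (0.0117) without NKX2-1 siRNA 2, and of cholesterol and fatty acid genes (-0.0303) without NKX2-1 siRNA 1; the cause was not tested. The medians nearest 0 (lineage factors, hypoxia, p53, inflammatory, BCL2 and mitochondrial lists) also changed sign under some scalings and left-out libraries or siRNAs.

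Labels number the replicates alike, but the numbers did not pair samples: the deviations of same-numbered libraries correlated at -0.35 between SOX2 siRNA 1 and NKX2-1 siRNA 1 and at -0.03 to 0.02 for the other 5 pairs of siRNAs. At -0.35, SOX2 siRNA 1 replicate 1 (30.7 M reads) deviated with NKX2-1 siRNA 1 replicate 2 (50.1 M), the deepest libraries of their targets. The replicates of these siRNAs also had the largest chi-squares per degree of freedom (5.78 and 4.65). A link to depth was not tested. With the replicate number as a block, 4083 genes were higher, 3729 lower and 2855 called in all 4 pairings.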
